A study of Mus musculus with 108 samples.

Results

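Distal genomic sites that were recovered from reporter-negative cells and from no reporter-positive cell were examined in an enhancer screen of mouse blood specification. All 95 sorted lists of distal fragments were joined into 58916 sites by overlap, and those with at least 1 fragment in a Negative library and none in a Low, Medium, High or Medium/High library of any stage were kept. The rule selected 2957 sites, which was 5.02% of all. A further 23696 sites (40.2%) were listed by positive libraries alone, and 32263 (54.8%) by both kinds. The sites were thus chosen by the presence and absence of fragments in these lists, and their levels in the lists are given as a description.

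In this screen a piece of open chromatin is cloned upstream of a weak promoter that drives yellow fluorescent protein (YFP), and the cell reports by its fluorescence whether the piece can raise transcription. An enhancer is a stretch of DNA bound by transcription factors that increases the activity of a promoter, often from a distance and in certain cell types alone. A fragment carried by dark cells may lack such activity, may act in another cell type, or may sit in a cell whose reporter was off when it was sorted. Open chromatin also holds elements other than enhancers, such as insulators bound by CTCF and silencers bound by REST.

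All samples derived from HM-1, a mouse embryonic stem cell line with a non-functional Hprt gene, in which the reporter (HSP68 minimal promoter and Venus-YFP) integrates by homologous recombination and repairs the locus. The fragments were cut by the Tn5 transposase from the open chromatin of 5 stages, cloned in the pDONR and then the pSKB vector, and the integrated cells were examined as ES cells (ES), FLK1+ hemangioblast cells (HB), an early hemogenic endothelium (HE1, KIT+ TIE2+ CD41-), a later one (HE2, KIT+ TIE2+ CD41+) and hematopoietic progenitors (HP, KIT+ TIE2- CD41+), differentiated in serum. At each stage, cells of replicates 1 to 4 were collected in 4 gates of YFP (High, Medium, Low and Negative) and those of replicate 5 in 3 (Medium/High, Low and Negative), which gave 25 Negative and 70 positive libraries. All cells carry a reporter with a fragment at the same locus, the Negative cells included, and no cell without a fragment was sorted into the gates. The lists hold intervals and no expression, so stage markers could not be checked.

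The lists held 715002 distal fragments, of which 158663 (22.2%) were Negative. Replicates 1 and 2 had 4633 to 45186 distal fragments in each library, and replicates 3 to 5 had 126 to 5919. Of the 44978 distal fragments of HE1 Negative replicate 1, 31467 (70.0%) were also in HE1 Medium replicate 2, and of the 1514 of HE1 Negative replicate 3, 1223 (80.8%) were also in HE1 Low replicate 4. The lists do not show whether labels were exchanged or libraries mixed, so it is not settled that HE1 Negative replicate 1, which lists 206 of the members, holds Negative cells. The main results are given with and without these 4 libraries.

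The letters of 6 Negative-only sites are shown because these were the sites listed by the most Negative libraries, or by the most replicates among those next in order. Each line is the forward strand of the 200 bp at the site centre in GRCm38 (mm10), read from the RefSeq genome, and capitals mark matches to any of the 16 motifs described with the motif shares.
Asph site, chr4:9530360-9530559: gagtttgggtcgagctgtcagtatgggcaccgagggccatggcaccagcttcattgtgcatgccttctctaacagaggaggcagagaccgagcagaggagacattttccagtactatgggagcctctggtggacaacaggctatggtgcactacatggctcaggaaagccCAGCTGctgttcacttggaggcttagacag
Hsdl2 site, chr4:59569613-59569812: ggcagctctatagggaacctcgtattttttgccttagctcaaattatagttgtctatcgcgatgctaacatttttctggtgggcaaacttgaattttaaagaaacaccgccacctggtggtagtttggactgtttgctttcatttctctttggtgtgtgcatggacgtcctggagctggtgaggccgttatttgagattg
Rbm19 site, chr5:120136618-120136817: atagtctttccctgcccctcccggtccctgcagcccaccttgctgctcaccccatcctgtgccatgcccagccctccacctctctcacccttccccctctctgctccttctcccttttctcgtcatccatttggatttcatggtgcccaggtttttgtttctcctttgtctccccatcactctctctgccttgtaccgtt
Efcab6 site, chr15:84070218-84070417: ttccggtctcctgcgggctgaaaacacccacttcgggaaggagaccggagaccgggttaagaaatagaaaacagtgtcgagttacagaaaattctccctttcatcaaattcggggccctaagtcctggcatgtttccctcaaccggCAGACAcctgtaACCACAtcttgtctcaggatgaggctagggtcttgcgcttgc
C5ar1 site, chr7:16250734-16250933: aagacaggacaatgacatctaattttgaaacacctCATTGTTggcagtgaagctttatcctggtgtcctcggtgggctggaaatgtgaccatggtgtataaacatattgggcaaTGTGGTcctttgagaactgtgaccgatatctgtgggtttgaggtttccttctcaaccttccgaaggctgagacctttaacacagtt
Fos site, chr12:85523508-85523707: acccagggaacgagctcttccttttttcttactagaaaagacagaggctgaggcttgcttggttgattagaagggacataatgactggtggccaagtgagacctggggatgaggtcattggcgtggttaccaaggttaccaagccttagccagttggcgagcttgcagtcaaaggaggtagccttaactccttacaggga

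The site in an intron of Asph, which encodes an aspartyl beta-hydroxylase, spanned chr4:9530405-9530515. It was listed in HE1 and HP Negative of replicate 1 and in HE1 and HE2 Negative of replicate 2, with 2 distinct fragments. The intergenic site at chr4:59569617-59569808 lay 11850 bp from the transcription start of Hsdl2, a gene of a peroxisomal dehydrogenase-like protein. It was listed in HE1 and HE2 Negative of replicate 1 and HE2 and HP Negative of replicate 2. The site in an intron of Rbm19 (chr5:120136615-120136821), which codes for a nucleolar RNA-binding protein and overlaps the antisense gene Gm10390 there, was in HB and HP Negative of replicate 1 and HE1 and HP Negative of replicate 2. Leaving out HE1 Negative replicate 1, which shares fragments with a positive list, the Asph and Hsdl2 sites are in 3 Negative libraries. No other member reached 4 Negative libraries, and none of these 3 was listed in replicates 3 to 5.

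Only 3 members were listed in 3 replicates. The intergenic site at chr15:84070172-84070463, 4969 bp from a start of Efcab6, was in HB Negative replicate 1, HE1 Negative replicate 2 and ES Negative replicate 3. The intronic site in C5ar1, the receptor of the complement fragment C5a, spanned chr7:16250671-16250996 and was in HE2 Negative replicate 1 and HP Negative replicates 2 and 4. The intergenic site at chr12:85523479-85523736 lay 49718 bp from the start of Fos, a subunit of the AP-1 factor, and was in HB Negative of replicates 1, 2 and 3 and at no other stage. These were the members listed in the most replicates, a count taken from the same lists that the rule used. The Efcab6, C5ar1 and Fos sites rested on 2, 3 and 2 distinct fragments. At none of them did more than 3 of the 5 replicates list a fragment.

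The other 4 of the 10 sites in the most Negative libraries were in 3 Negative libraries and 2 replicates each. They lay in an intron of Fah (chr7:84594182-84594444), the last enzyme of tyrosine breakdown, in an untranslated exon part of Slc25a15 (chr8:22377192-22377386), a mitochondrial ornithine carrier, in an intron of Parva (chr7:112483538-112483860), an adaptor of focal adhesions, and 16942 bp from the start of Tsen15 (chr1:152369448-152369852), a subunit of the tRNA splicing endonuclease. The Parva site had the most distinct fragments of any member, 10, while the Fah and Slc25a15 sites rested on 1 distinct fragment each. All 10 sites had at least 1 fragment identical to a fragment of the plasmid lists, so the material was in the cloned library. Their windows were covered by 13 to 85 distinct pDONR fragments and 2 to 23 distinct pSKB fragments.

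Most Negative-only sites rested on very little. Of the 2957 sites, 2736 (92.5%) were listed by 1 library, 203 by 2, 15 by 3 and 3 by 4, while 59.3% of the positive-only sites were listed by 1 library and 122 of them by 10 or more. A single distinct fragment stood behind 2768 members (93.6%). Of the 221 members in at least 2 Negative libraries, 123 (55.7%) rested on 1 distinct fragment that was found again, and 191 were in at least 2 replicates. A fragment identical to base pair in 2 libraries can be the same integrated or cloned molecule, so such sites are not 2 independent pieces of DNA.

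**Figure D1:**
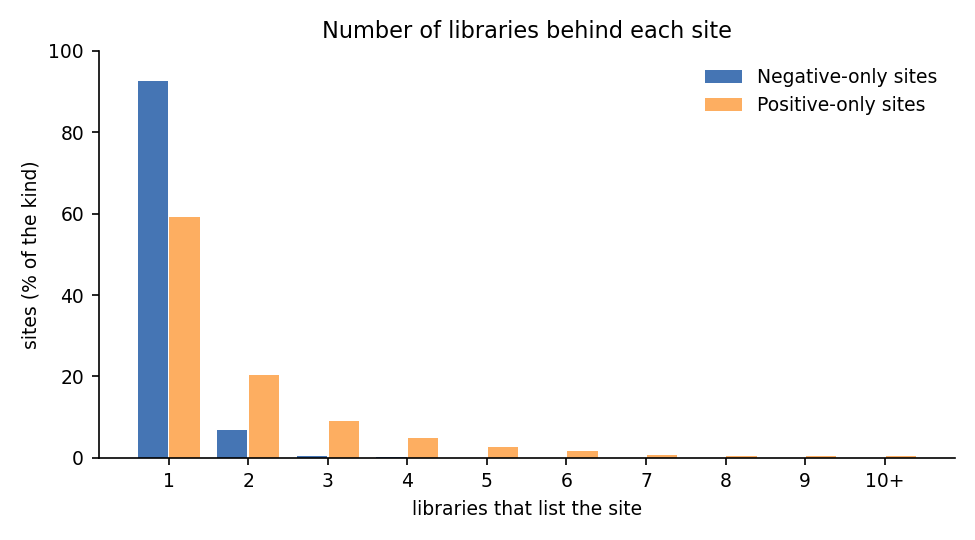
Bars give the percent of the 2957 Negative-only and of the 23696 positive-only sites (y axis) by the number of libraries that list the site (x axis, 10+ stands for 10 or more). No Negative-only site was in more than 4 libraries, and 92.5% were in 1. There are 25 Negative and 70 positive libraries, which bounds both distributions.

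Among all sites listed by exactly 1 library, 2736 of 16780 (16.3%) were Negative, beside 22.2% of all listed distal fragments. The same rule was then applied to each gate, keeping sites found in that gate and in no other. Per 10000 listed distal fragments, the Negative gate had 186 such sites, Low 239, Medium 245, High 340 and Medium/High 228. The Negative gate thus had the lowest number for its depth. Without the 4 HE1 libraries these values were 261, 280, 316, 381 and 242. The Negative value then lay above that of Medium/High, which held only 2235 distal fragments, and still below Low, Medium and High. Between 87.4% and 98.0% of these gate-only sites were in 1 library in every gate, including 92.5% in Negative, 92.0% in Low and 92.3% in Medium. No test was run on these counts, since the rule fixed them.

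At the threshold, 2645 members had a single Negative listing just inside the rule, and 3625 sites lay just outside it, with exactly 1 positive fragment beside their Negative ones. Of the latter, 419 were in at least 2 Negative libraries. The site at chr13:103710373-103710715, 54038 bp from Srek1, was in 5 Negative libraries of 3 replicates and was left out by 1 fragment of HE1 Medium replicate 2, a library that shares fragments with HE1 Negative replicate 1. The site in the coding exon of Tmem151a (chr19:5071739-5071975) was in 4 Negative libraries and in HP High replicate 1. The intergenic site 7968 bp from Id1, a BMP-responsive inhibitor of helix-loop-helix factors (chr2:152728077-152728488), was in 4 Negative libraries and in HE2 High replicate 1. The most Negative libraries at a site just outside the rule was thus 5, against 4 inside it.

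ES contributed the most Negative-only sites. A member was listed in ES Negative cells at 1033 sites (34.9%), in HB at 677 (22.9%), in HP at 607 (20.5%), in HE2 at 424 (14.3%) and in HE1 at 328 (11.1%). As a share of the Negative distal fragments, members took 7.11%, 2.28%, 8.51%, 6.41% and 3.64% in ES replicates 1 to 5, a mean of 5.59% ± 2.56 (SD, n = 5). In HB they took 2.80%, 2.70%, 5.91%, 4.82% and 2.99%, a mean of 3.84% ± 1.44. The 5 ES values and the 5 HB values overlapped.

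In HE1 the shares were 0.471%, 1.05%, 0%, 0.758% and 0.792% (mean 0.614% ± 0.40, n = 5). In HE2 they were 1.83%, 1.72%, 3.00%, 1.95% and 1.08% (mean 1.91% ± 0.694), and in HP 2.45%, 2.66%, 1.02%, 3.64% and 3.14% (mean 2.58% ± 0.988). The ES and HE1 values did not overlap, and neither did those of HB and HE1, while HE2 and HP overlapped each other and HB. The 0% of HE1 replicate 3 belongs to the list that shares 80.8% of its fragments with HE1 Low replicate 4. Without the 4 shared libraries the 3 remaining HE1 values were 1.06% to 1.52% and the 5 ES values 2.32% to 8.59%.

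Depth of the positive lists moved with this order, and every positive fragment of any stage can remove a site from the rule. Positive libraries held 69028 distal fragments at the ES stage, 91222 at HB, 100520 at HP, 130479 at HE2 and 165090 at HE1, which is the reverse of the order of the mean Negative-only shares. In the other gates the order by stage was like this in part. Sites of the Low gate alone took 4.41% of the Low distal fragments of ES, 2.97% of those of HB, 1.86% for HE1, 2.64% for HE2 and 2.60% for HP, so HE1 was again the lowest. Sites of the Medium gate alone were lowest in HE1 (1.41%) and highest in HB (4.52%), followed by ES (4.28%). Sites of the High gate alone were highest in ES (6.24%), with HB at 6.08%, and lowest in HE2 (2.50%), below HE1 (2.89%). The part of depth in the stage differences was not tested.

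**Figure D2:**
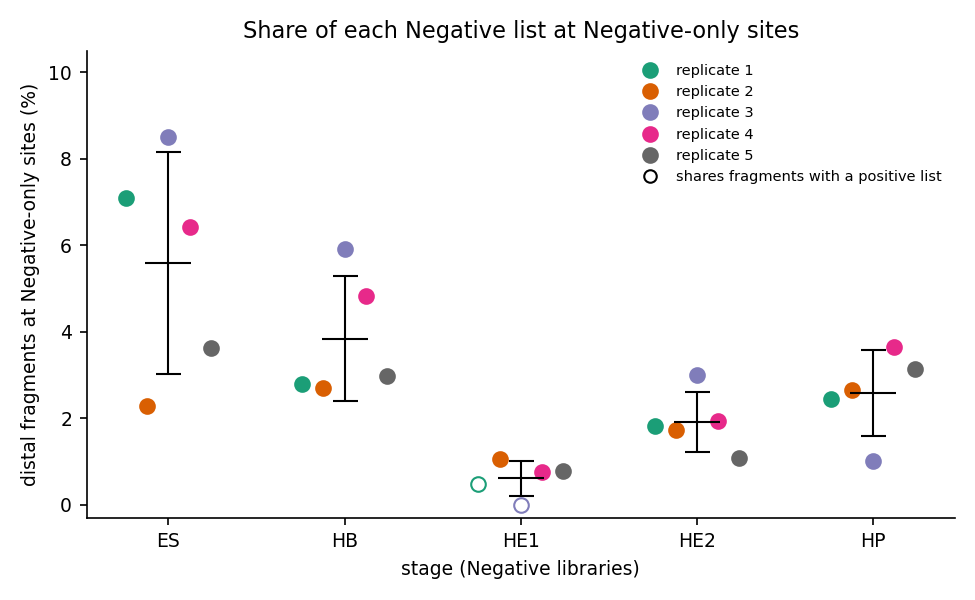
Each point is 1 Negative library and gives the percent of its distal fragments that lie at Negative-only sites (y axis) by stage (x axis); colours are replicates, open points are the HE1 lists that share most fragments with a positive list, and black bars are the mean ± SD of 5 replicates. ES values range from 2.28% to 8.51% and HE1 values from 0% to 1.05%, and these do not overlap.

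Most members could not be shared between stages, since 2736 of the 2957 were in 1 library. In 1 stage alone were 2851 members, 100 were in 2 stages, 6 in 3 and none in more. The same counts were not made for sites with positive fragments, and no test was run. The pairs with the most were HE2 and HP with 37, ES and HB with 26 and HE1 and HE2 with 20. These pairs are neighbours in the differentiation path, but the stages differ in members, from 328 in HE1 to 1033 in ES. Without the same counts over all sites, no order along the path can be read from the pairs. The other neighbouring pair, HB and HE1, had 5, fewer than HB and HP with 11 and HE1 and HP with 8. The remaining pairs had 2 to 4. Replicate 1 held 1368 members and replicate 2 held 1106, while replicates 3, 4 and 5 held 520, 122 and 35. Of the 520 in replicate 3, 484 were in that replicate alone.

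The plasmid lists did not enter the rule. The rule removes sites with positive fragments at any stage, so the stage of the cloned material may not be independent of it. This was not tested. Of the 3204 distinct fragments at members, 2893 (90.3%) were identical to a plasmid fragment, and 92.8% of these were in the plasmid lists of 1 stage alone. At members listed in ES Negative cells, 41.9% of these fragments came from plasmids made of ES chromatin, against 17.9% of all ES Negative fragments. By replicate the share was 42.0%, 19.9%, 51.4%, 65.0% and 71.4% at members and 17.8%, 12.5%, 22.3%, 28.4% and 19.0% at the other sites of the same lists, higher at members in 5 of 5. The last 2 member values rest on 20 and 7 fragments.

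Members of HB Negative cells likewise held more HB-derived material than the other sites of the same lists. HE2 plasmids were still their most frequent source, with 37.5% of the plasmid-identical fragments, against 31.4% for HB plasmids. Replicates 1 to 5 had 40.9%, 21.4%, 20.7%, 60.0% and 27.3% at members against 17.3%, 10.6%, 7.90%, 31.5% and 22.8% at the other sites, again higher in 5 of 5. The member values of replicates 4 and 5 rest on 15 and 11 fragments. At the later stages the order varied by replicate. HE1 members had 59.7% in replicate 1, the list that shares fragments with a positive one, and 48.3% in replicate 2, against 68.7% and 42.9% at the other sites, and replicates 3 to 5 had 0, 4 and 1 fragments at members. HE2 members had 37.6% and 55.5% in replicates 1 and 2 against 29.3% and 46.5%, and were higher in 2 of 5 replicates, the other 3 resting on 4 to 10 fragments. HP members had 12.8% and 10.8% in replicates 1 and 2 against 8.83% and 10.1%, and were higher in 4 of 5. Of these, replicates 3 and 5 rest on 4 and 7 fragments at members. Replicate 4, with 58 fragments, went the other way, with 5.17% against 11.1%. With replicates pooled, HE2 plasmids held 52.4% of the plasmid-identical fragments of HP members and HP plasmids 11.7%. For HE2 members, HE1 plasmids held 45.2% and HE2 plasmids 44.2%. Positive-only sites of 1 library had the same direction in ES, with 57% ES-derived fragments against 24.9% of all ES positive fragments, and in HB, with 17.7% against 10.8%. The difference between members and the other sites was noticed in the values and was not tested. Nor was the part of the ATAC-seq filter, for which the stage of the peaks is not stated for each list.

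Whether a Negative-only state repeats was measured in lists that had not entered the choice. The rule was applied to 4 replicates and the share of distinct distal fragments at the chosen sites was taken in the replicate left aside, once in its Negative and once in its positive cells. The 5 rounds chose 3487, 4118, 2633, 2879 and 2941 sites. In the Negative cells of replicates 1 to 5 these sites took 0.946%, 0.847%, 0.532%, 0.559% and 0.563% of the fragments, and in the positive cells 1.28%, 1.75%, 0.669%, 0.768% and 0.409%. The Negative value was the higher one in replicate 5 only, and the ranges overlapped.

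The means were 0.690% ± 0.193 in Negative and 0.976% ± 0.536 in positive cells (SD, n = 5), a difference of -0.29 percentage points (exact two-sided permutation test over 252 splits, p = 0.325). By replicate the difference ran from -0.90 to 0.15 points. Without the 4 HE1 libraries it was 0.0039 points (exact p = 0.968), with values of 1.88%, 0.566%, 0.664%, 0.503% and 0.563% in Negative and 1.81%, 0.548%, 0.695%, 0.665% and 0.439% in positive cells. Sites chosen as Negative-only thus carried no detectable excess of Negative fragments in an unseen replicate by this measure, with or without those libraries. A fragment found in several libraries of a replicate counted once, and the positive pools were deeper. The shares are therefore not fully scaled for depth, and the part of depth in the difference was not tested. A p that misses the threshold does not show that the shares are equal, and the per-replicate differences without the 4 libraries ran from -0.16 to 0.12 points.

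**Figure D3:**
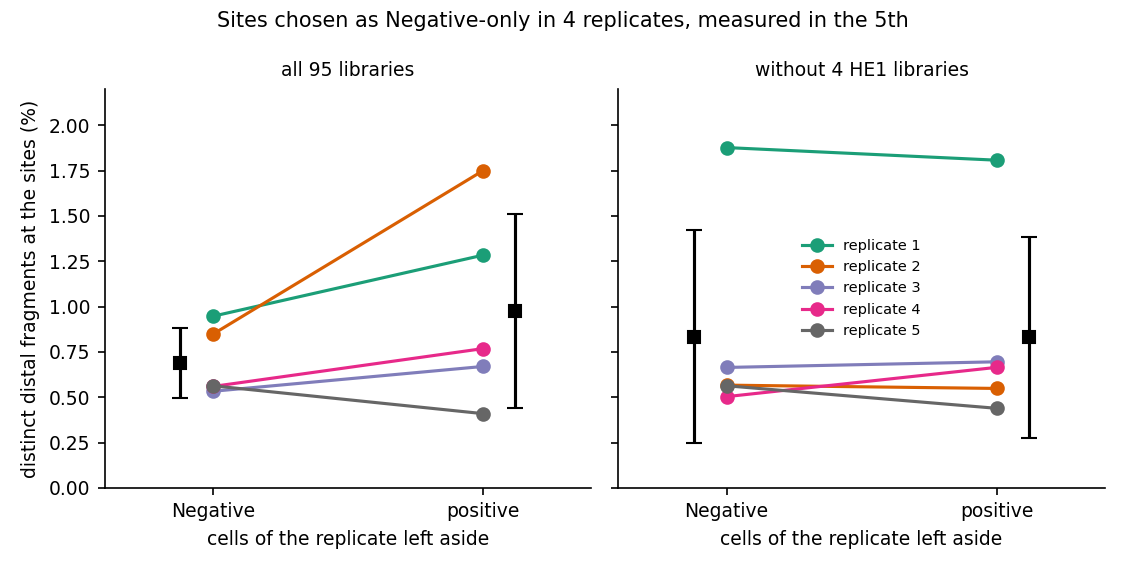
Lines join the percent of distinct distal fragments (y axis) at sites chosen as Negative-only in the other 4 replicates, in Negative and in positive cells of the replicate left aside (x axis); black squares are means ± SD of 5 replicates. With all 95 libraries the Negative value lies below the positive one in 4 of 5 replicates, and without the 4 HE1 libraries that share fragments the means differ by 0.0039 percentage points.

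The shares are divided by the distinct fragments of a replicate, each counted once over its libraries, so they can still depend on depth. Counts of the chosen sites are not divided by depth at all. Replicate 1 had 230735 distinct distal fragments in positive and 80528 in Negative cells, and replicate 2 had 167454 and 52075. Of the 3487 sites chosen without replicate 1, 1729 (49.6%) were listed in its positive cells and 665 (19.1%) in its Negative cells, and 1589 were not listed. Of the 4118 chosen without replicate 2, 2103 (51.1%) were in its positive and 405 (9.83%) in its Negative cells. In the shallow replicates 3, 4 and 5 the share found in positive cells was 6.08%, 1.15% and 0.476%, and in Negative cells 1.60%, 0.556% and 0.272%. Without the 4 HE1 libraries the share found in positive cells was 53.7% in replicate 1 and 23.7% in replicate 2, so the value of replicate 2 fell by more than 1.5 times, and the share found in Negative cells was 15.8% and 11.1%.

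The return of a site was also compared with that of positive sites of equal support. Sites listed by exactly 1 library in the other 4 replicates were split by whether that library was Negative or positive, here without the 4 HE1 libraries. In replicate 1, 52.1% of the Negative-only and 46.7% of the positive-only sites were listed in positive cells, and 14.6% and 10.1% in Negative cells. In replicate 2 the shares in positive cells were 23.0% and 26.5%, and those in Negative cells 10.4% and 10.2%. In replicate 3 they were 6.33% and 6.08% in positive and 1.70% and 1.46% in Negative cells. The positive-cell share was higher for the Negative-only sites in replicates 1, 3 and 4 and for the positive-only sites in replicates 2 and 5. With all libraries, replicate 2 stood apart, with 50.6% of the Negative-only against 25.6% of the positive-only sites in its positive cells, and HE1 Medium replicate 2 is among those positive lists.

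**Figure D4:**
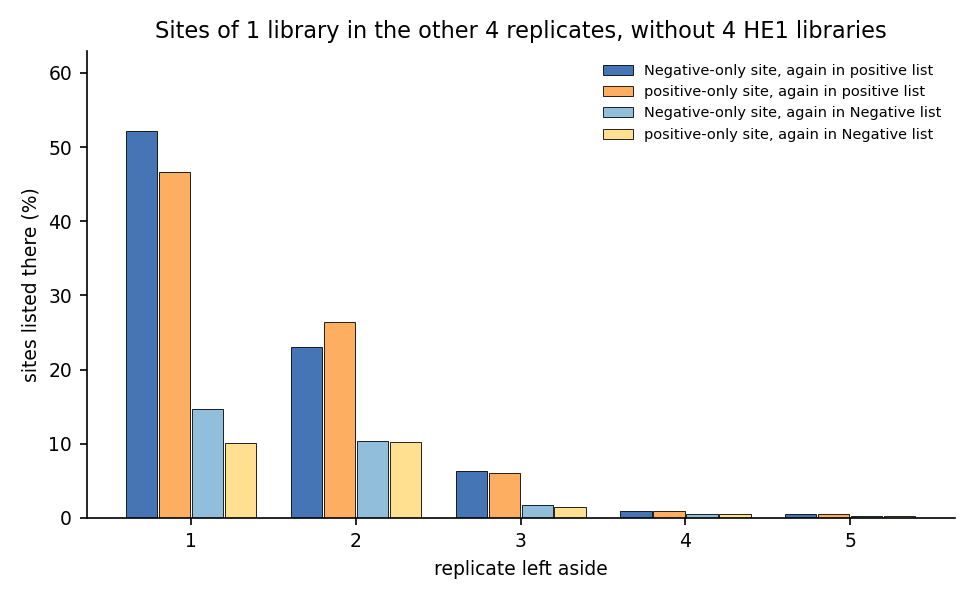
Bars give, for each replicate left aside (x axis), the percent of sites that were listed there (y axis) among sites that had 1 library in the other 4 replicates, for Negative-only and positive-only sites and for positive and Negative lists, without the 4 HE1 libraries that share fragments. In replicate 1 the bars stand at 52.1%, 46.7%, 14.6% and 10.1%, and in replicates 4 and 5 all are under 1%.

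Sequence and position were compared between sites of 1 library, 1188, 925, 483, 110 and 30 Negative-only sites in replicates 1 to 5 against 7570, 4498, 1667, 209 and 100 positive-only sites. None of 8 features passed an adjusted p of 0.05 (exact two-sided permutation tests over 252 splits, Benjamini-Hochberg over 8), and none had an unadjusted p under 0.05. GC content was 49.8% ± 0.634 at Negative-only and 49.9% ± 0.757 at positive-only sites (SD, n = 5; exact p = 0.825, adjusted p = 0.873). The CpG density was 1.46 ± 0.122 and 1.44 ± 0.147 per 100 bp, and 15.1% ± 3.86 and 15.3% ± 1.47 of the window was repeat-masked. The log10 distance to the nearest protein-coding transcription start was 4.40 ± 0.02 and 4.42 ± 0.03, and 41.8% ± 3.21 and 40.4% ± 3.8 of the sites were intergenic.

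Fragment length had the smallest p of the 8. Fragments of Negative-only sites measured 212, 205, 191, 213 and 177 bp on average in replicates 1 to 5 and those of positive-only sites 194, 189, 185, 193 and 177 bp, longer at Negative-only sites in 4 of 5 replicates. The difference of 12.1 bp did not pass (exact p = 0.159, adjusted p = 0.873). With all Negative-only against all positive-only sites it was 17.4 bp (exact p = 0.0397, adjusted p = 0.317). Coverage in the cloned material was alike in size, with a log2 of 1 plus the distinct plasmid fragments over the window of 4.98 ± 0.21 and 4.93 ± 0.04. Over all sites this value was 5.74, GC content 51.1% and the repeat-masked share 12%. Both kinds of 1-library sites had values lower in coverage and GC than the average of all sites, which was not tested.

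Motifs were searched in the 200 bp at the site centres, on both strands and with overlaps counted, as 16 short letter strings. Listed from the most frequent over all 58916 sites, they were SMAD (CAGACA, 21.3% of all sites), RUNX (TGTGGT, 18.1%), ETS (CAGGAAG, 17.9%), the E-box (CAGCTG, 16.3%), TEAD (GGAATG, 13.8%), GATA factors (AGATAA, 13.0%), AP-1 (TGANTCA, 11.6%), RBPJ (GTGGGAA, 5.36%), SOX (AACAATG, 3.96%), KLF (GGGTGTGG, 2.45%), SP (GGGGCGGG, 2.38%), CTCF (CNAGGGGGC, 2.09%), OCT (ATGCAAAT, 1.09%), GFI1 (AAATCACNG, 0.553%), REST (TTCAGCACC, 0.419%) and YY1 (AAGATGGCG, 0.173%). A match is a string in the genome and not a bound site. None of the 16 passed an adjusted p of 0.05 between Negative-only and positive-only sites of 1 library, and 2 had an unadjusted p under 0.05.

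The E-box string, bound by helix-loop-helix factors, was in 13.4% ± 1.06 of the Negative-only and 15.1% ± 0.607 of the positive-only windows (SD, n = 5), lower in 5 of 5 replicates (difference -1.67 points, exact p = 0.0159, adjusted p = 0.254). With all Negative-only against all positive-only sites the E-box difference was -0.79 points (exact p = 0.476), and with a 400 bp window its exact p was 0.452. The REST string was in 0.0505% ± 0.113 and 0.323% ± 0.19 (exact p = 0.0476, adjusted p = 0.381). For REST this rests on very few windows, since 4 of the 5 replicates had none at Negative-only sites. With all Negative-only against all positive-only sites the REST difference was -0.34 points (exact p = 0.00794, the smallest that 252 splits can give, adjusted p = 0.127). REST is a repressor of neuronal genes, and its string was the less frequent one at Negative-only sites here, but with sites joined by an overlap of 50 bp the difference was 0.23 points the other way (exact p = 0.984).

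Among the factors of blood and endothelium, the ETS string was in 11.7% ± 3.74 of the Negative-only and 14.8% ± 2.29 of the positive-only windows (exact p = 0.151, adjusted p = 0.413). GATA was in 12.7% ± 1.24 and 11.4% ± 1.70, and RUNX in 19.0% ± 4.01 and 19.8% ± 4.42. SMAD, the effector of TGF-beta and BMP signals, had the largest difference of the 16, with 24.1% ± 4.91 and 20.4% ± 1.66 (3.74 points, exact p = 0.175, adjusted p = 0.413), higher at Negative-only sites in 3 of 5 replicates. With a 400 bp window its exact p was 0.0476 and its adjusted p 0.593. AP-1, which ends many signalling pathways at chromatin, was in 8.0% ± 2.67 and 9.83% ± 2.12, and TEAD, the partner of YAP, in 15.6% ± 2.16 and 15.2% ± 2.28. The insulator string of CTCF was in 0.909% ± 0.595 and 1.26% ± 0.419 (exact p = 0.333), so Negative-only sites were not richer in it beyond the spread between replicates. Of the sequences printed above, the Asph window held an E-box, the Efcab6 window RUNX and SMAD strings and the C5ar1 window RUNX and SOX strings, and the Hsdl2, Rbm19 and Fos windows held none of the 16.

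**Figure D5:**
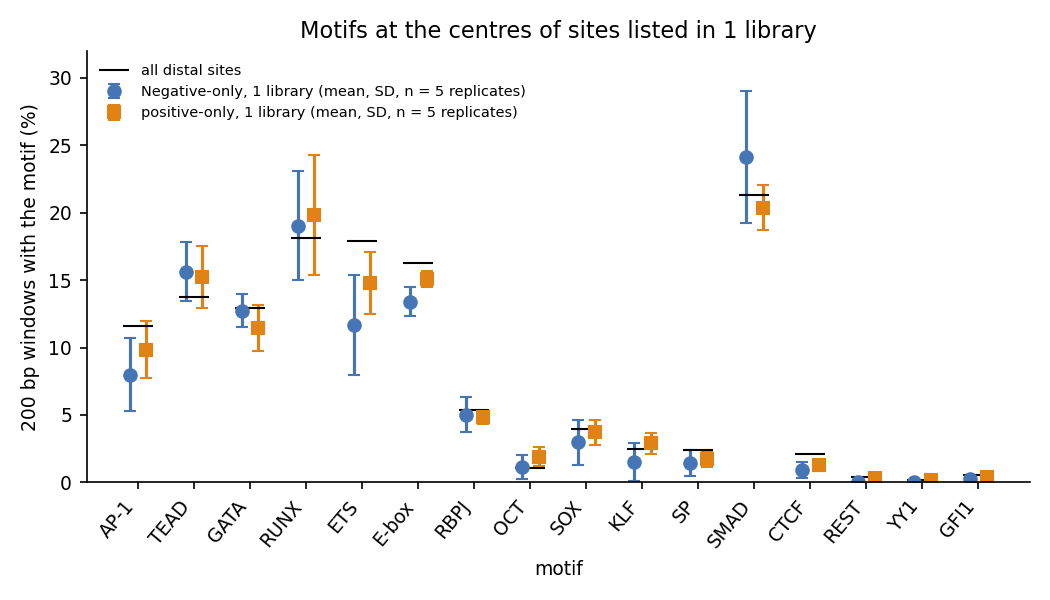
Points give the percent of 200 bp windows that hold each motif (y axis; motifs on the x axis) at Negative-only and positive-only sites listed in 1 library, as mean ± SD of 5 replicates, and dashes give all 58916 sites. The 2 kinds overlap within their error bars for most motifs; the E-box means are 13.4% and 15.1% and did not pass after adjustment.

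In the genome, Negative-only sites lay where other distal sites lie. Of the members 51.2% were in introns, 40.9% intergenic and 7.88% in exons, beside 51.0%, 40.6% and 8.34% of all sites. The median distance to a protein-coding start was 24831 bp at members and 22861 bp over all sites, and the centres of 56 members lay within 1500 bp of one in the annotation used here. Members were 205 bp wide at the median and 70 to 593 bp in range. They made up 4.11% to 5.94% of the sites of each autosome and 5.73% of those of the X chromosome, and none of the 9 sites on Y.

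Many members neighboured a positive site. At 990 of them (33.5%) another site with a positive fragment began or ended within 500 bp, and at 66.4% within 10000 bp, with a median gap of 4121 bp. For positive-only sites of 1 library the same values to another positive site were 34.6%, 66.5% and 4045 bp. Whether such a Negative-only interval and its neighbour belong to 1 element was not tested. The Rbm19 site touched a site with positive fragments with a gap of 0 bp, and the Hsdl2 site lay 16 bp from one. The Tsen15, Slc25a15 and Fah sites lay 13, 19 and 72 bp from a site with positive fragments.

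By nearest gene, members were spread thinly. Within 100 kb of a protein-coding start lay 2472 members (83.6%, and 85.1% of all sites), nearest to 2123 genes, of which 1832 had 1 member. The gene with the most was Auts2, which encodes a regulator of Polycomb complexes in neurons, with 7 of its 36 sites. Another 7 genes had 4, and among them those with the fewest sites in all were Dock3, Ikzf1, Galnt9 and St6galnac3. The 7 Auts2 members were each in 1 library, 2 of them an ES and 2 an HE2 library, and 1 each an HB, HE1 and HP library.

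For Dock3, which encodes an exchange factor of Rac enriched in neural tissue, all 4 distal sites assigned to it by nearest start were members. They were listed in ES Negative replicate 1 (chr9:107246393-107246630), in ES Negative replicate 3 (chr9:107246126-107246345 and chr9:107255757-107255845) and in HE2 Negative replicate 1 (chr9:106903884-106903973). Only the HE2 site lay in Dock3 itself, in an intron. The site at chr9:107255757-107255845 lay in an untranslated exon part of Mapkapk3, and the others were intergenic. Ikzf1, which encodes the lymphoid and progenitor factor Ikaros, had 4 members among 11 sites. All 4 were in HP Negative cells, at chr11:11679294-11679482, chr11:11729798-11730134 and chr11:11735301-11735472 in replicate 1 and at chr11:11712077-11712253 in replicate 2. Each of these sites was in 1 library, and 3 of the 11 Ikzf1 sites were positive-only. Galnt9 and St6galnac3, which encode glycosyltransferases, had 4 of 13 and 4 of 18 sites.

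Gene lists of the differentiation path took small shares of the Negative-only sites, and also of all sites. For the pluripotency list, 2 members lay nearest to 2 of its 20 genes (0.0676% of members, 0.185% of all sites). One was in an intron of Sall4 (chr2:168762492-168762621), a zinc finger factor of ES cells, in HE1 Negative of replicates 1 and 2, the former being 1 of the 4 libraries with shared fragments. The other was 3951 bp from Nanog (chr6:122703309-122703767), in HB Negative replicate 1 with 8 distinct fragments. Neither was listed in ES cells. The Sall4 site lay 23 bp and the Nanog site 132 bp from another site with positive fragments.

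The mesoderm and cardiac list had 10 members at 9 genes (0.338% of members, 0.272% of all sites). The site 5127 bp from Nkx2-5, the homeobox factor of the heart (chr17:26849953-26850319), was in HE1 Negative replicates 2 and 5 and had no fragment identical to a plasmid fragment. The site 2400 bp from Tbx20 (chr9:24776587-24776819) was in ES Negative replicate 3. The nearest site with positive fragments lay 5 bp from the Nkx2-5 site and 4121 bp from the Tbx20 site. The endothelial list had 9 members at 8 genes (0.304%, 0.409% of all sites), among them an intergenic site near Fli1, an ETS factor of endothelium and blood (chr9:32564786-32564900, HE2 Negative replicate 2), and an intronic site of Mecom (chr3:30507917-30508272, HB Negative replicate 3) that lay 1419 bp from its start. The blood transcription factor list had 11 members at 7 genes (0.372%, 0.367% of all sites). These include the 4 at Ikzf1 and a site 2273 bp from Lmo2 (chr2:103955511-103955914, HP Negative replicate 2). The nearest site with positive fragments lay 6 bp from the Lmo2 site, 4524 bp from the Fli1 site and 6608 bp from the Mecom site. For the 4 Ikzf1 sites this gap was 271 to 14556 bp.

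No member lay nearest to any of the 30 genes of the list of myeloid, erythroid and progenitor proteins, near which 86 of all sites (0.146%) lay. The list of signalling pathways of the culture had 17 members at 14 genes (0.575%, 0.489% of all sites), with the Fos site described above and an intronic site of Rbpj, the DNA-binding factor of Notch signalling (chr5:53594288-53594582), in ES Negative replicate 1 and HB Negative replicate 2. Lists of other lineages had 3 members (neural, 0.101%, 0.197% of all sites), 3 (endoderm and liver, 0.101%, 0.105%) and 5 (skeletal muscle, 0.169%, 0.0934%). Their sites included an intronic one of Pax3 (chr1:78140703-78140914), in ES Negative replicate 1 and HB Negative replicate 2. Others lay near Tubb3, Afp, Myog and Pax7 in 1 library each. The gap to the nearest site with positive fragments was 106 bp at the Tubb3 site. It was 1402 to 88068 bp at the Pax3, Afp, Myog and Pax7 sites. With counts from 0 to 17 for each list, the shares of the lists differ by few sites, and no test was run on them.

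The lists were not fully free of what the stated filters remove. Fragments amplified from HM-1 cells without a reporter numbered 1945 to 10895 in 3 control lists, and 19 of the 3204 distinct fragments at members (0.593%) were identical to one, beside 0.292% of all distinct distal fragments. The share identical to a plasmid fragment was 90.3% at members and 83.3% of all distinct distal fragments. In the plasmid lists, a pSKB fragment covered the central window at 98.2% of members and 99.3% of all sites, with medians of 7 and 11 distinct fragments. At positive-only sites of 1 library the median was also 7.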

How the data were processed

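Per the labels and the methods, the authors trimmed reads with Trim Galore, aligned them to mm10 with Bowtie2, kept uniquely placed pairs, turned each into an interval and kept 1 copy of each. The methods state that lists were filtered against controls from HM-1 cells without a reporter, plasmid fragments and ATAC-seq peaks, and were split at 1.5 kb from transcription starts, but the deposited lists still hold fragments that these filters would remove. Which stage the peaks came from is not stated for each list. The sorted lists were deposited as intervals without read counts, so read depth is unknown, PCR dropout cannot be seen and a fragment weighs 1 however often it was read. Plasmid and control lists were deposited by the authors with raw read counts per fragment. No interval or floor for counting error is given, as no reads are known.

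Sorted starts were moved by 1 bp to the scale of the plasmid lists, fragments sharing at least 1 bp were merged, and coordinates count from 1. Positive means the Low, Medium, High and Medium/High lists. Sites were annotated with GENCODE M21, and sequence came from RefSeq GRCm38.p6. The place of a site is that of its centre. Values of a replicate pooled its libraries over stages. Exact two-sided permutation tests compared 5 with 5 replicate values over 252 splits, with Benjamini-Hochberg adjustment over 8 features and over 16 motifs. Labels do not say whether replicates were separate cultures, so p-values measure the spread between these samples, which may be technical. The held-out value and the permutation test were run on simulated lists. In these no fragment was found again and no libraries shared fragments. That check therefore does not cover the counting of each fragment once per replicate. Python 3.11.15, numpy 2.4.6 and pandas 2.3.3 were used.

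The members and lists were chosen with earlier results of these data known. The sites named were the 10 in the most Negative libraries (ties by replicates, stages, distinct fragments and genomic order), up to 2 for each of 9 gene lists within 100 kb of the nearest gene, 3 just outside the rule, and the members of the 5 genes nearest to the most members, with ties among genes broken by the fewest sites, a step added after the values were seen. The comparison of own-stage plasmid material was also added then. Alternatives were starts as deposited, an overlap of 50 bp, promoter lists counted as positive, plasmid-identical fragments only, 4 HE1 libraries left out, each replicate left out, 2 fragments or 2 libraries needed, means over stages, all sites of a kind, a 400 bp window and the replicate number as a block.

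Same-numbered Negative and positive sets deviated together with correlations of 0.27, 0.24, 0.093, 0.18 and 0.21 over sites in replicates 1 to 5. The highest correlation with a set of another number was 0.36, 0.26, 0.13, -0.046 and -0.058, above the same-numbered one in replicates 1 to 3. As not all same-numbered values lay above 0.1, the numbers were not taken as pairs.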

Additional observations from a re-analysis of the deposited data

Results flagged for a closer look

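Of 55 groups of 5 replicate values or libraries, 6 had a value far from the other 4 by Dixon's ratio, and chance alone gives about 1 in 20. At positive-only sites of 1 library, 76.0% of the sites of replicate 5 had a fragment identical to a plasmid fragment, against 91.9% to 97.8% in the others. The log2 coverage by plasmid fragments at these sites was 4.86 in replicate 1, against 4.94 to 4.96. The CTCF string was in 2% of the 100 positive-only sites of replicate 5, against 0.957% to 1.16%.

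At Negative-only sites of 1 library, the AP-1 string was in 3.33% of the 30 sites of replicate 5, against 8.18% to 9.73% in the other replicates. The SOX string was in 0% of these 30 sites, against 3.37% to 3.93%. The REST string was in 0.253% of the 1188 sites of replicate 1 and in none of the sites of the other replicates. Replicate 5, which held 4 of the 6 values, had the fewest sites of both kinds.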

How the results depend on the processing

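The count of 2957 Negative-only sites was 2923 to 3926 with starts as deposited, an overlap of 50 bp, promoter lists counted as positive, plasmid-identical fragments only or the 4 HE1 libraries left out. It was 2672 to 4368 with a replicate left out. With at least 2 distinct Negative fragments required it was 189, and the sites in at least 2 Negative libraries were 98 in place of 221, since fewer sites can qualify. The latter count was 206 to 307 under the first 5 of these alternatives and 153 to 217 with a replicate left out.

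The held-out difference changed its direction without the 4 HE1 libraries (0.0039 points). It was -0.41 to -0.14 with a replicate left out, -0.02 with at least 2 Negative libraries needed to choose a site, -0.13 as a mean over stages and -0.43 to -0.28 under the remaining alternatives, and its exact p lay between 0.188 and 0.968 in all. With the replicate number as a block, which is an exact sign-flip test, the held-out difference of -0.29 points had p = 0.188. No feature and no motif passed an adjusted p of 0.05 under the block or under any other alternative run, and the block cannot reach 0.05 with 5 pairs, as its smallest p is 0.0625. Leaving out a replicate leaves 4 against 4 values.

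No feature or motif difference passed the threshold, and the direction of several changed with the settings. Of 103 values of features under an alternative 20 had the other sign, and of 208 of motifs 25. With an overlap of 50 bp the changed differences were 0.14 points for CTCF, -0.10 for RBPJ, 0.23 for REST, -0.0044 for CpG per 100 bp and 0.16 for the repeat-masked percent. With promoter lists they were -0.12 for TEAD and -0.0092 for CpG, with plasmid-identical fragments -0.46 for TEAD, and without the 4 HE1 libraries 0.58 for RUNX and 0.092 for the repeat-masked percent. With a 400 bp window they were 0.072 for CTCF, -0.57 for GATA, 0.73 for RUNX, 0.019 for SOX and 0.20 for GC percent. With all sites of a kind they were -0.24 for RBPJ, 0.0055 for log10 distance, -0.25 for log2 plasmid fragments, -4.24 for the percent with a plasmid fragment and 1.07 for the repeat-masked percent.

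With a replicate left out, the difference ran from -2.82 to 0.13 for AP-1, -0.51 to 0.29 for CTCF, -0.21 to 0.022 for GFI1, -0.85 to 1.46 for RBPJ, -2.81 to 2.66 for RUNX, -1.10 to 0.32 for SOX, -0.54 to 0.73 for SP and -0.59 to 1.5 for TEAD. For the features it ran from -0.065 to 0.094 for CpG, -0.51 to 0.33 for GC percent, -1.09 to 2.70 for intergenic percent, -0.050 to 0.0057 for log10 distance, -0.027 to 0.10 for log2 plasmid fragments, -2.63 to 3.25 for the percent with a plasmid fragment and -1.33 to 0.76 for the repeat-masked percent. The cause of these changes was not tested. The percent with a plasmid fragment has no value with plasmid-identical fragments only, where it is full by construction. Shallow lists limit all of this: replicate 5 adds 30 Negative-only sites of 1 library.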
